A study of Gallus gallus with 4 samples.

Results

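Described here are 10 genes of synaptic and calcium signalling in delaminating chick neural crest, namely the glutamate receptor genes GRM4 and GRM3, the calcium channel genes CACNA1E and CACNA1H, the potassium channel partner DPP6, and the signalling enzyme genes CAMK1G, CAMK4, ADCY8, NOS1 and DGKG. These 10 members were selected by function and by name from the 212 rows of the authors' deposited table. Their cranial and trunk values were known by then. Their higher cranial level came with the choice and is given as a description with no test. All 212 rows were higher in cranial cells, and the authors' deposited table is itself a selected list with a largest adjusted q-value of 0.0485. Each of the 10 was found in the table under its own symbol.

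Neural crest cells leave the dorsal neural tube and form facial skeleton, peripheral nerves and glia, and pigment cells. The cranial group was taken from chick embryos at stage HH9+ that had been electroporated with the FoxD3 NC1 enhancer, and the trunk group from embryos at stage HH14 with the FoxD3 NC2 enhancer; living GFP-positive cells of the dissected region were sorted, and all of them had gone through electroporation and culture. There were 2 libraries per group, but the authors' deposited table gives 1 value per group, so replicate spread and depth are unknown here. Axial level, stage and enhancer change together and cannot be told apart in the comparison.

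In excitable cells, glutamate released by a neighbour acts on channel-forming receptors and on metabotropic receptors such as GRM3 and GRM4, which signal through G proteins and lower cyclic AMP. Voltage-gated calcium channels open when the membrane depolarises, and the calcium that enters binds calmodulin, which switches on CaM kinases, some adenylyl cyclases and neuronal nitric oxide synthase. Many of these genes are best known from neurons, which are among the cells that the neural crest later forms.

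The 10 genes differed widely in level, and the largest ratios between the groups belonged to genes of low level. GRM4, DPP6, ADCY8 and CAMK4 had cranial values between 10.6 and 26.4 FPKM (fragment counts scaled for transcript length and sequencing depth), per the authors' deposited table. The other 6 lay between 1.63 and 5.18 FPKM in cranial cells of the same table. Summed over the 10 genes, cranial FPKM came to 88.1 against 16.3 in trunk, and GRM4 and DPP6 together held 55.9% of the cranial sum. The 4 genes with the largest cranial over trunk ratio, DGKG, NOS1, CAMK1G and GRM3, were all among those 6 lower genes.

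**Figure D1:**
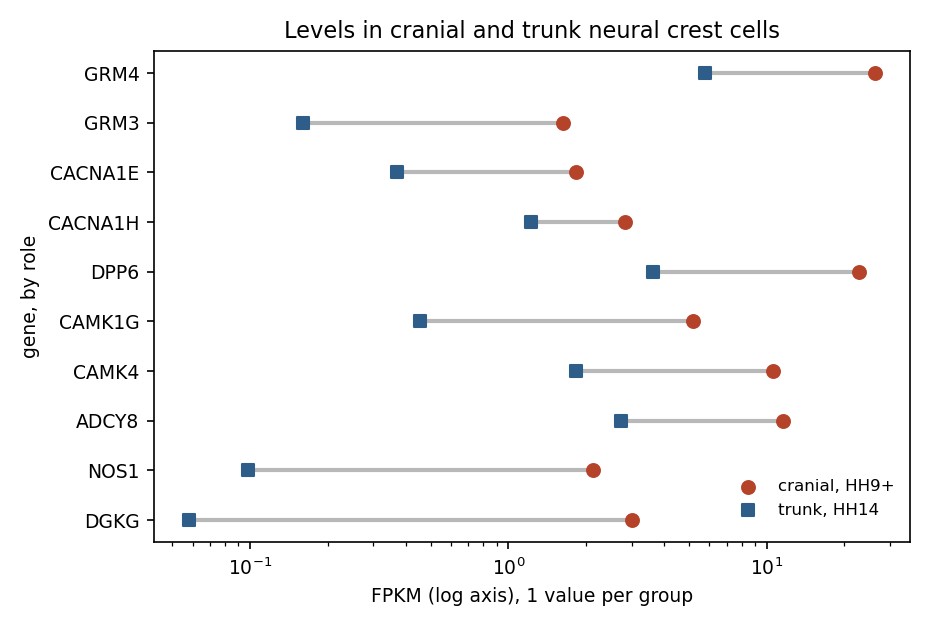
FPKM of each of the 10 genes in cranial (circles) and trunk (squares) cells on a log axis, 1 authors' value per group with no error available, genes ordered by role. Every circle lies to the right of its square, and the trunk squares of DGKG, NOS1, GRM3, CAMK1G and CACNA1E lie below 1 FPKM.

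Among the receptors, GRM4, a group III metabotropic glutamate receptor, had the highest level of the 10 genes in both groups. For GRM4 the authors' deposited table gave a cranial FPKM of 26.4 and a trunk FPKM of 5.77, a ratio of 4.58 (log2 2.19, q = 0.0127). An error for this fold can be had only from the authors' test score: dividing the log2 ratio by that score gave an implied standard error (SE) of 0.60. GRM3, a group II receptor that also couples to inhibitory G proteins, had a cranial FPKM of 1.63 and a trunk FPKM of 0.160 per the authors' deposited table, a ratio of 10.2 (log2 3.36, implied SE 0.79, q = 0.00194). GRM4 was thus listed 16.1 times above GRM3 in cranial and 36.1 times above it in trunk cells, per length, from the authors' deposited table. The difference between the log2 folds of GRM3 and GRM4 was 1.16 with a combined implied SE of 0.99, and its sign turned with 1 FPKM added to every value (-0.83), so the receptors cannot be ordered by fold. The authors' deposited table, whose genome build is not settled, places GRM4 on chromosome 26 (4217534 to 4292957) and GRM3 on chromosome 1 (8132010 to 8370385).

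The pore-forming channel genes were low in both groups. CACNA1E, which encodes the R-type calcium channel opened by strong depolarisation, had a cranial FPKM of 1.83 and a trunk FPKM of 0.369 per the authors' deposited table, a ratio of 4.97 (log2 2.31, implied SE 0.35, q = 9.95e-09). CACNA1H, a T-type channel opened by weak depolarisation, had values of 2.82 in cranial and 1.22 in trunk on the same scale per the authors' deposited table, a ratio of 2.31 (log2 1.21, implied SE 0.22, q = 1.19e-05). CACNA1H had the smallest fold and the smallest implied SE of the 10 genes, and in a table of high scores the former limits the latter. In cranial cells CACNA1H stood 1.54 times above CACNA1E, and in trunk cells 3.31 times above it, in the authors' deposited table. CACNA1E exceeded CACNA1H in log2 fold by 1.10 with a combined implied SE of 0.41, a description of rows whose errors come from the same libraries; with 1 FPKM added the excess was 0.27. CACNA1E is placed on chromosome 8 (6012107 to 6082305) and CACNA1H on chromosome 14 (5258728 to 5366578) by the authors' deposited table.

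DPP6, a membrane protein without peptidase activity that joins A-type potassium channels and speeds their gating, had the second highest level of the 10 genes in both groups. For DPP6 the authors' deposited table gave a cranial FPKM of 22.9 and a trunk FPKM of 3.64, a ratio of 6.27 (log2 2.65, implied SE 0.33, q = 5.83e-13). Its q-value ranked 7 among the 212 rows and was the smallest of the 10 genes. Once 1 FPKM was added to each value, DPP6 had the largest fold of the 10, 5.14-fold, where DGKG stood at 3.79-fold and NOS1 at 2.86-fold. The DPP6 row spans 442 kb of chromosome 2 (7139516 to 7581521 per the authors' deposited table), the third longest locus of the 212.

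The rows of the calmodulin-dependent kinase genes differed in how firmly they can be named. CAMK1G, a membrane-anchored CaM kinase I, had a cranial FPKM of 5.18 and a trunk FPKM of 0.455 per the authors' deposited table, a ratio of 11.4 (log2 3.51, implied SE 0.74, q = 0.000245). Its locus is on chromosome 26 (2922624 to 2953931 per the authors' deposited table). The row named CAMK4, after a mainly nuclear kinase that phosphorylates CREB, had a cranial FPKM of 10.6 and a trunk FPKM of 1.82 per the authors' deposited table, a ratio of 5.83 (log2 2.54, implied SE 0.62, q = 0.00304). That row has the same interval (chromosome 28, 2500817 to 2509940) as ENSGALG00000024307, a row without a symbol whose cranial FPKM was 6.99 and trunk FPKM 0.569, a ratio of 12.3, per the authors' deposited table (q = 0.0161). The sum of both rows was 17.6 FPKM in cranial cells and 2.39 FPKM in trunk, 7.37-fold apart. In the RefSeq gene table of assembly GRCg7b, CAMK4 lies on a different chromosome from this row, whereas the other 9 genes lie on the same chromosome in both tables. The value listed for CAMK4 is therefore uncertain in division of reads and in identity, and comparisons with CAMK1G are not drawn.

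ADCY8, an adenylyl cyclase stimulated by calcium and calmodulin that makes cyclic AMP, was the third highest of the 10 genes in cranial cells. The authors' deposited table gave ADCY8 a cranial FPKM of 11.6 and a trunk FPKM of 2.72, a ratio of 4.25 (log2 2.09, implied SE 0.53, q = 0.00475). Its locus is on chromosome 2 (146546238 to 146666713 per the authors' deposited table), 4020 kb from the nearest other row. GRM4, whose product acts on cyclic AMP in the opposite direction, had a log2 fold only 0.11 larger, with a combined implied SE of 0.80.

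NOS1 and DGKG had the largest ratios of the 10 genes and the lowest trunk levels. NOS1, the neuronal nitric oxide synthase activated by calcium and calmodulin, had a cranial FPKM of 2.14 and a trunk FPKM of 0.0978 per the authors' deposited table, a ratio of 21.8 (log2 4.45, implied SE 0.65, q = 3.43e-09). The NOS1 row covers the same interval (chromosome 15, 11517414 to 11634995) as the row for KSR2, a scaffold of the RAF and MEK kinases, which had a cranial FPKM of 0.983 and a trunk FPKM of 0.0786 per the authors' deposited table. NOS1 and KSR2 are neighbours with 0 protein-coding genes between them in the RefSeq gene table of GRCg7b, and how reads were divided between these rows is not known, so both values are uncertain. The sum of both rows was 3.12 FPKM in cranial cells and 0.176 FPKM in trunk, 17.7-fold apart (log2 4.14). The fold of a sum must lie between those of its rows, log2 4.45 for NOS1 and 3.64 for KSR2. That it lay within 1 implied SE of NOS1 alone is therefore no check on the division of reads.

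DGKG, a calcium-binding diacylglycerol kinase that turns the lipid messenger diacylglycerol into phosphatidic acid, had a cranial FPKM of 3.01 and a trunk FPKM of 0.0577 per the authors' deposited table, a ratio of 52.1 (log2 5.70, implied SE 1.64, q = 0.0226). Its trunk value was the lowest and its implied SE the widest of all 212 rows, and its q-value was the largest of the 10 genes. The locus of DGKG is on chromosome 9 (6185698 to 6198550 per the authors' deposited table). The nearest other row, named after its value was seen, was that of TRPM2, a calcium-permeable cation channel gene 53.3 kb away, with a cranial FPKM of 3.34 and a trunk FPKM of 0.384 per the authors' deposited table. In GRCg7b 4 protein-coding genes lie between DGKG and TRPM2, so the pair are not immediate neighbours there.

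Set against the whole table, the 10 genes had a higher median ratio and a lower median level. Their median cranial level was 4.09 FPKM against 12.1 FPKM over all 212 rows, and their median trunk level 0.839 against 2.72 FPKM, in the authors' deposited table. All 10 genes reached 2-fold, as did 81.6% of all rows. A ratio of 4 or more was found in 9 of the 10 genes, CACNA1H being the exception, beside 54.2% of all rows. It was 8 or more in 4 of them beside 26.9% of all rows, and 16 or more in 2, DGKG and NOS1, beside 10.8%. With only 0.1 FPKM added to each value, DGKG stood at 19.7-fold, still over 16, and NOS1 at 11.3-fold, under 16. A q-value under 0.01 was given for 8 of the 10, GRM4 and DGKG being the exceptions, beside 63.2% of all rows in the authors' deposited table. The median log2 fold of the 10 was 2.60 against 2.12 over all rows. The genes were picked by function and name with their values known, from rows all higher in cranial cells, so nothing is read from these counts.

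**Figure D2:**
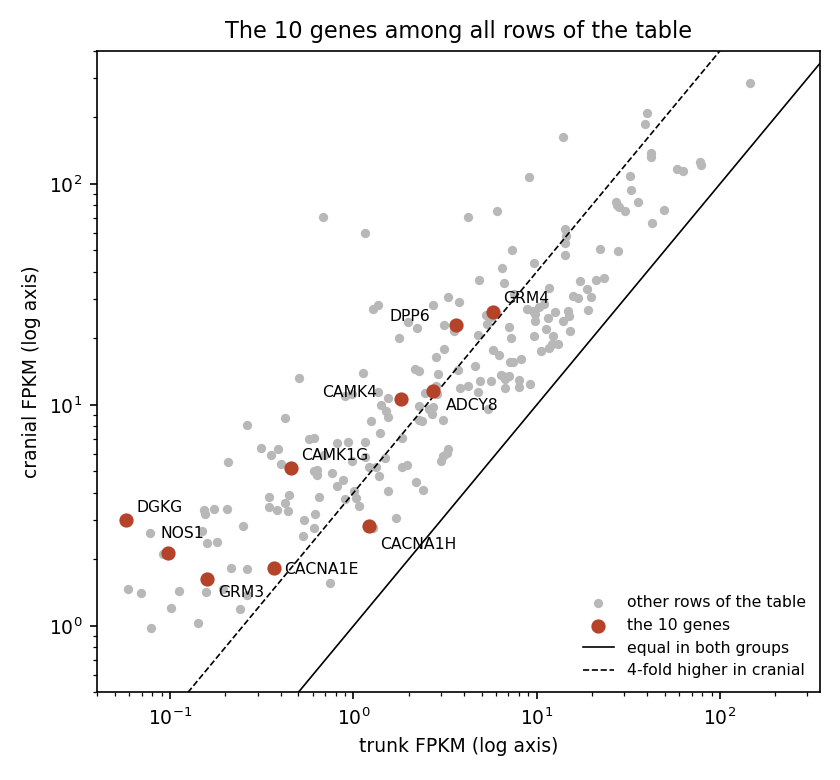
Cranial against trunk FPKM on log axes for the 212 rows of the authors' deposited table, the 10 genes in red and named, other rows in grey. The solid line marks equal values and the dashed line a 4-fold difference; 9 of the 10 genes lie above the dashed line and CACNA1H lies below it.

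The size of the fold depended on the pseudocount, a constant added before the ratio is taken, most of all where the trunk value was low. Trunk values under 1 FPKM were listed for 5 of the 10 genes (CACNA1E, CAMK1G, GRM3, NOS1 and DGKG), beside 29.7% of all rows of the authors' deposited table. After 1 FPKM was added to each value, 4 of the 10 genes (DPP6, CAMK1G, CAMK4 and GRM4) were at least 4-fold higher in cranial cells, beside 25.5% of all rows. The median log2 fold of the 10 was then 1.84 against 1.51 over all rows, and with 5 FPKM added it was 0.78 against 0.84. In absolute terms GRM4 and DPP6 had the largest differences between the groups, 20.6 and 19.2 FPKM, followed by ADCY8 at 8.86 and CAMK4 at 8.80 FPKM. The same difference was 1.46 FPKM for CACNA1E, the smallest, and 2.95 FPKM for DGKG.

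**Figure D3:**
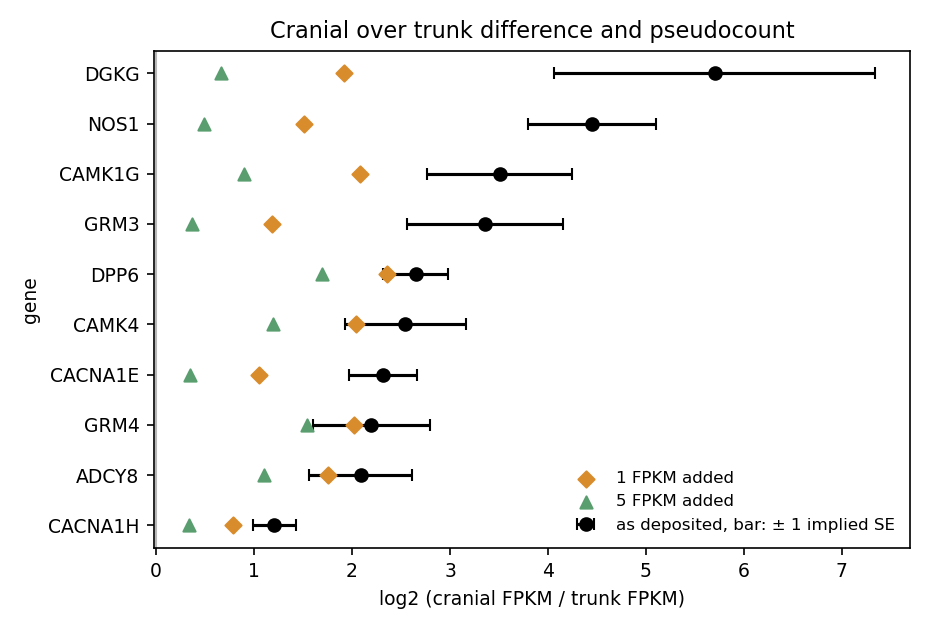
Log2 of the cranial over trunk ratio for each gene: black circles as deposited with bars of 1 implied SE, diamonds with 1 FPKM added to both values, triangles with 5 FPKM added. DGKG moves from 5.70 to 1.92 with 1 FPKM added, and DPP6 from 2.65 to 2.36.

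Most neighbours in the order of the 10 genes by fold lay closer together than their implied errors. Of the 9 adjacent pairs in that order, 1 was separated by more than its combined implied SE, ADCY8 above CACNA1H by 0.88 on the log2 scale with a combined implied SE of 0.57. Sorting by the fold itself brings neighbours close and sets the ends far apart. The combined implied SE also takes the rows as independent, though they come from the same libraries. The gaps are therefore a description, and no order of the genes is drawn from them. The ends of the order were further apart: NOS1 exceeded CACNA1H by 3.24 (combined implied SE 0.69) and DGKG exceeded it by 4.50 (combined implied SE 1.66). The places of NOS1 and CAMK4 in the order carry the uncertainty of their shared intervals, which the implied SE may not hold. After 1 FPKM was added to each value, the gaps of NOS1 and DGKG over CACNA1H were 0.73 and 1.14. No error can be given for them, since the implied SE belongs to the ratios as deposited. Implied errors did not follow level in every case. All 212 rows had a score of at least 3.18, so a row with a small fold can only have a small implied SE. The ranks that follow are bound by this and are read no further. CACNA1E had the second smallest implied SE of the 63 rows with under 1 FPKM in trunk, 0.35 against a median of 0.76, and CACNA1H at 2.82 FPKM in cranial cells had a smaller implied SE than GRM4 at 26.4 FPKM.

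**Figure D4:**
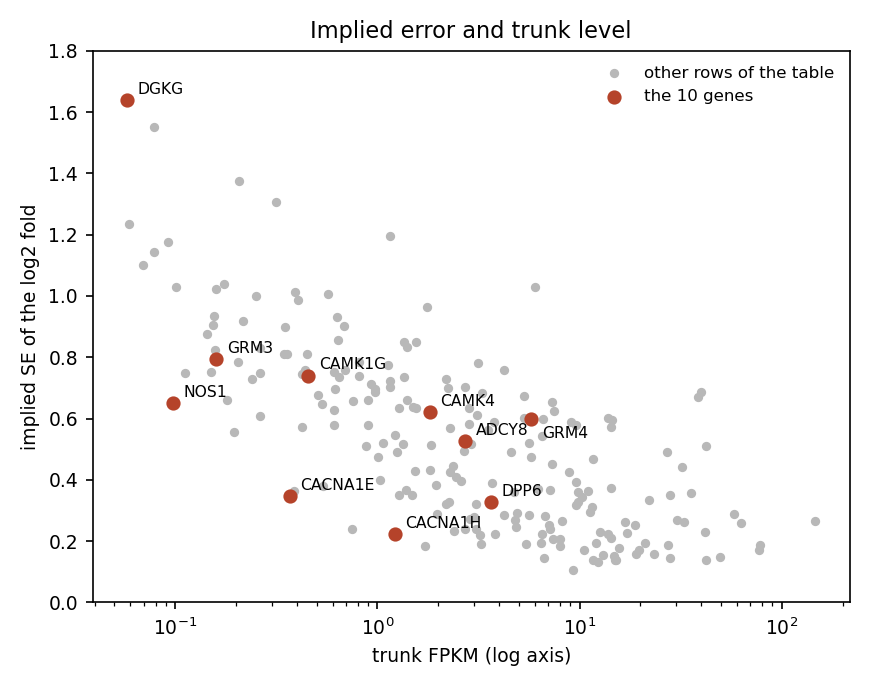
Implied SE of the log2 fold against trunk FPKM (log axis) for the 212 rows, the 10 genes in red and named. DGKG is at the upper left with 1.64, and CACNA1E, CACNA1H and DPP6 lie at 0.35, 0.22 and 0.33.

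Several of the genes had long loci. Length was not used in the choice, but a choice by function may bring it along, which was not tested. Long loci were not particular to the 10 genes. The rows of NRX1A and LRP1B, named after their values were seen, spanned 649 and 438 kb. The median locus of the 10 was 91.6 kb against 24.7 kb over all 212 rows of the authors' deposited table. Loci over 100 kb belonged to 5 of the 10 (DPP6, GRM3, ADCY8, NOS1 and CACNA1H) and to 12.7% of all rows. The shortest were those of CAMK4 at 9.12 kb and DGKG at 12.9 kb. The NOS1 length is that of the interval shared with KSR2. The CAMK4 length is also that of a shared interval, on a chromosome where GRCg7b does not place CAMK4. The lengths are a description with no test. The 10 rows lay on 8 chromosomes, with GRM4 and CAMK1G on chromosome 26 and DPP6 and ADCY8 on chromosome 2.

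Other genes of these pathways were sought through 9 lists with 174 entries, not all of them symbols in the RefSeq gene table of GRCg7b. That gene table held 23 of the 25 glutamate receptor entries and 20 of the 23 calcium channel entries. It held 14 of the 18 glutamate transport and metabolism entries and 7 of the 9 nitric oxide and cyclic GMP entries. The lists held 10 rows of the table, which were the 10 genes themselves; the lists were drawn up by hand with results known, and this count says nothing of related genes outside them. Such genes are in the table, among them TRPM2 and, named after their values were seen, SCGN, which encodes a calcium-binding protein, and SCNN1B, a subunit gene of the epithelial sodium channel. SCGN had a cranial FPKM of 13.9 and a trunk FPKM of 1.13, and SCNN1B 3.32 and 0.439, per the authors' deposited table. Smaller ratios were listed for 2 further rows named after their values were seen. The myosin light chain kinase row MYLK had 49.8 FPKM in cranial and 27.9 in trunk cells, a ratio of 1.78. The nicotinic receptor subunit row ACHA4 had 5.25 and 1.83 FPKM, a ratio of 2.87. The 25 glutamate receptor entries gave GRM3 and GRM4 and no channel-forming receptor subunit, and the 23 calcium channel entries gave CACNA1E and CACNA1H and no auxiliary subunit. The 17 CaM kinase and calmodulin entries gave CAMK1G and CAMK4, the 14 cyclic AMP entries ADCY8, the 32 potassium and sodium channel entries DPP6, the 9 nitric oxide and cyclic GMP entries NOS1 and the 19 diacylglycerol entries DGKG. The lists for glutamate transport and metabolism (18 entries) and for calcium stores and buffers (17 entries) gave 0 rows. A gene outside the authors' deposited table has no value here, and rows named only by a protein accession or an Ensembl identifier were not searched, so these counts do not show that the other pathway genes were equal between the groups or not expressed.

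The 3 rows nearest to the median of the 10 genes in log2 fold and log2 cranial level were LOC425593, the leucine-rich repeat gene LRRN2 and a row under the protein entry Q6PTX2. LRRN2 had a cranial FPKM of 4.30 and a trunk FPKM of 0.814, a ratio of 5.28, per the authors' deposited table. This likeness rests on 1 value in each of 2 groups.

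Markers of other cell types were sought beside these values. The neuron list (16 entries) and the neural tube list (8 entries) gave 0 rows of the table. Of these entries, 15 and 8 are symbols in the RefSeq gene table of GRCg7b. Genes outside these lists but known from neurons or neural tube are in the table, among them STMN4 and LHX5. Both were named after their values were seen. STMN4 had a cranial FPKM of 2.36 and a trunk FPKM of 0.159, and LHX5 3.34 and 0.153, per the authors' deposited table. The LHX5 row shares its interval with a row without a symbol. That partner row had a cranial FPKM of 70.5 and a trunk FPKM of 0.686, per the authors' deposited table. Its ratio of 103 was the largest of all rows. How reads were divided between LHX5 and its partner row is not known, so both values are uncertain. The ectoderm and placode list gave 2 of its 10 entries, CDH1, the epithelial cadherin, and ESRP1, an epithelial splicing regulator. CDH1 had a cranial FPKM of 24.9 and a trunk FPKM of 5.65, and ESRP1 2.56 and 0.532, per the authors' deposited table. Epithelial genes outside that list are in the table too, among them ESRP2 and SPINT1, named after their values were seen. ESRP2 had a cranial FPKM of 11.2 and a trunk FPKM of 2.87, and SPINT1 62.4 and 14.3. Of 6 neural crest markers, SOX8 was the 1 present. A gene outside the authors' deposited table has no value here, and rows named only by an accession were not searched. A marker that was not found may therefore be expressed in either group. The part of other cell types in the values of the 10 genes was not tested, and in sorted pools fewer cells of a type and less RNA per cell cannot be told apart.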

How the data were processed

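RNA of sorted cells was measured in 4 libraries, 2 cranial and 2 trunk. Per the labels' protocols, RNA was amplified as cDNA from small inputs and sequenced as single reads. The submitters' processing notes name TopHat, Cufflinks, Cuffdiff 2.1 and galGal4, without order or role. The authors' deposited table gives 1 value per group, read as FPKM because Cuffdiff writes that unit; the file headers say only values. Its deposited log2 fold is trunk over cranial and matched log2 of the 2 values to within 0.0001 for 212 of 212 rows; the sign is turned round here. The deposited test score, p-value and q-value were copied. In the 193 rows with a p-value of at least 1e-10, 7 of the 10 genes among them, the deposited p-value lay within 1% of the two-sided normal value of the score, which is the ground for the implied SE; the file headers do not state it, and it was adopted only once the values had been seen. Whether the libraries are separate pools is not stated, and no depth, SD or counting interval could be given.

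Coordinates are as the authors' table writes them. The notes name galGal4, while 8 rows lie on sequences with names such as chrUn_random, used in an earlier assembly. Names were set against the RefSeq gene table of GRCg7b, in which all 10 symbols were found; it served for names, for the chromosome a gene is on and for which genes are neighbours, and its coordinates were not used otherwise. The members and lists were chosen with earlier results of these data known. Named genes were the 10 members, rows sharing a locus with one, list members and the 3 nearest rows; exceptions are stated. List names were matched as symbols, protein entry names, gene numbers or hand translations such as CADH1 to CDH1. Values were computed with Python 3.11.15, pandas 2.3.3 and numpy 2.4.6. The division that gives the implied SE was run on simulated numbers. That run checks the arithmetic only, not whether the result is an error of these data. No test was run, because 1 value per group allows none. Pseudocounts of 0.1, 1 and 5 FPKM, a minimum of 1 FPKM, other fold limits and leaving out shared loci or single genes were tried.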

Additional observations from a re-analysis of the deposited data

How the results depend on the processing

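No alternative could turn a direction, since all rows have a higher cranial value. Instead of 9 genes at 4-fold or more there were 4 with a pseudocount of 1 FPKM and 0 with 5 FPKM. There were 4 with at least 1 FPKM in both groups (of the 5 genes left, by construction) and 4 at 8-fold. The count was between 7 and 10 under the other alternatives: a pseudocount of 0.1, a q-value under 0.01, a 2-fold limit, without shared loci, and without CAMK4 or DGKG, the last 2 chosen after seeing the data. Over all 212 rows the share at 4-fold fell likewise, from 54.2% to 25.5% with 1 FPKM added, and 26.9% reached 8-fold. No share over all rows was counted for 5 FPKM or for the 1 FPKM minimum, so nothing about the 10 genes is read from those counts. The median log2 fold of 2.60 over the 10 genes became 1.84 and 0.78 with 1 and 5 FPKM added. It lay between 2.19 and 2.65 under the others, some of which left fewer genes. There were 5 genes with at least 1 FPKM in both groups and 8 without shared loci or with a q-value under 0.01. Without CAMK4 or DGKG there were 9, and the counts at 4-fold are out of the same numbers. With 0.1 FPKM added, NOS1 moved by over 1 implied SE (log2 4.45 to 3.50). With 1 FPKM added, 6 genes (DGKG, NOS1, CAMK1G, GRM3, CACNA1E and CACNA1H) moved by over 1 implied SE towards 0, and all 10 did with 5 FPKM. A small implied SE makes this limit easy to pass, as for CACNA1H (log2 1.21 to 0.78, implied SE 0.22). The share of all rows that moved so was not counted, so nothing particular to the 10 genes is read from these counts. Summing the rows of a shared locus, also chosen after seeing the data, moved NOS1 from 4.45 to 4.14 and CAMK4 from 2.54 to 2.88.

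No paired analysis was possible because only 1 value per group is given, and A is the single replicate letter found in both groups. Libraries could not be left out in turn either. Depth is unknown, so the limit it sets on the low trunk values cannot be given.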
